A study of Rattus norvegicus with 4 samples.

Results

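Glomeruli of rats given Adriamycin contained 216 transcripts of a pseudogene biotype among the 13261 genes used. The members were all rows whose biotype contains the word pseudogene, whatever their level. The series measured polyadenylated RNA from sieved glomeruli, the filtering units of the kidney, in 4 male rats of the outbred Wistar stock. All 4 had received Adriamycin (ADR, doxorubicin) intravenously, and no age was given. Rats without ADR were not analysed here, so no change with treatment is reported. The labels name more than one day of harvest and do not tie an animal to a day, so harvest day and animal cannot be told apart. The 7 podocyte genes used as markers, Nphs1 and Synpo among them, had summed levels of 3621 to 6896 CPM per sample.

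Pseudogenes are copies of genes that have lost the ability to make the original protein. Processed pseudogenes arise when a messenger RNA is reverse transcribed and inserted back into the genome, which leaves a copy without introns and, as a rule, without the promoter of its source. Abundant housekeeping messages, such as those for ribosomal proteins, chaperones and glycolytic enzymes, are the usual sources in mammals. A copy that stays close to its source in sequence shares short reads with it. The gene a copy was named after is called its parent below.

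Of the 216 members, 119 had the plain biotype pseudogene, 82 were processed, 9 unprocessed and 6 transcribed and processed. The names given in the table say little about their origin. Names of genomic clones or contigs were carried by 173 members (80.1%), LOC numbers by 27, RGD numbers by 6 and gene symbols by 10. No deposited name began with Rpl or Rps, and 0 members carried the suffix -ps. Looking the names up in the RefSeq gene table for assembly GRCr8, by symbol, synonym or gene number, matched 46 members (21.3%) to 45 genes. The other 170 could not be tied to a parent. For 2 of the matched members, AABR07066529.1 and AABR07045373.1, the RefSeq gene (Plin3 and Gpbp1l2) also has a row under its own name.

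Among the 46 matched members, RefSeq lists 24 as protein coding, 21 as pseudogenes and 1 as a transcribed pseudogene. The 24 took 32.1% of all reads counted for members, most of it from Ubb, which alone took 21.7% of those reads. The 24 include 9 of the 10 members that carry a gene symbol: Ubb, Ier2, Sephs2, Rtl8a, Itpripl2, Gpbp1l2, Ado, Adam1a and Foxq1. Ubb encodes polyubiquitin, the precursor of the ubiquitin that marks proteins for degradation. Ier2 is an immediate early gene, Sephs2 makes the selenium donor for selenoprotein synthesis, and Foxq1 is a forkhead transcription factor. The deposited biotypes rest on the annotation used by the authors, and the word pseudogene is used below for that label only.

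The bases upstream of the start sites of Ubb and Ier2 are shown because both were among the 10 most abundant members and RefSeq gives each a start of its own. Both runs hold the 250 bases before the start, 5′ to 3′ on the gene's strand, from RefSeq in build GRCr8. That build is not the Rnor_6.0 build named for the files. Ubb is at chr10:47746673-47746922 on the plus strand and Ier2 at chr19:40399123-40399372 on the plus strand. Capitals mark a match, on either strand, to any of 5 motifs: the TATA box (TATAAA), the CCAAT box (CCAAT), the GC box (GGGCGG), the inverted repeat bound by heat shock factors (GAANNTTC) and the cyclic AMP response element (TGACGTCA). No motif overlaps another in these runs.
Ubb: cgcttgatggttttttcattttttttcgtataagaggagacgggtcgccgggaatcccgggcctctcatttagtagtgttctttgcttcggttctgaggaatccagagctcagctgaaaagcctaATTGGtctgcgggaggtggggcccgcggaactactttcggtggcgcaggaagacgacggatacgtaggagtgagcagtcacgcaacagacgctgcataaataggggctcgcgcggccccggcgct
Ier2: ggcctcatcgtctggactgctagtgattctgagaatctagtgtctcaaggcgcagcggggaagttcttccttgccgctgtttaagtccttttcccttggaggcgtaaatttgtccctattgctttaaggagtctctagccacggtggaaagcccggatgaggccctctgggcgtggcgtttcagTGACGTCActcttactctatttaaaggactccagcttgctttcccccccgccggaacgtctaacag
Ubb held a CCAAT box on the reverse strand, read as ATTGG, a motif found in 34.3% of 27457 RefSeq upstream windows of this length. The run for Ier2 held the cyclic AMP response element, which 1.7% of the windows hold. A match describes the letters and does not show that a factor bound there. The TATA box letters were in 13.1% of windows, the GC box in 32.4% and the heat shock repeat in 7.02%, and these were not found in either run.

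Members were low in abundance. Levels are given as CPM, reads scaled to a common total over the genes used, which is not corrected for transcript length. The median member had 6.9 CPM, or 105 reads on average over samples, against 30.5 CPM and 461 reads for the 12778 protein-coding genes. A mean under 50 reads was found for 57 members (26.4%) and for 4.3% of protein-coding genes. The middle of the distribution of members ran from 3.22 to 15.4 CPM (quartiles). On the log2(CPM + 1) scale, the median over members was 2.99, 2.92, 2.98 and 2.99 in replicates 1 to 4. All 216 were counted in each animal: the lowest value was 5 reads, and 215 members had at least 10 reads in every sample. The lowest mean of any gene used was 1.07 CPM, so detection in every animal can follow from a filter on low genes and is no result about members. Pseudogenes with no row in the table were not analysed here.

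Summed over members, the share of reads was 0.422% for replicate 1, 0.411% for replicate 2, 0.415% for replicate 3 and 0.412% for replicate 4. The Wilson 95% intervals ran from 0.419% to 0.426%, from 0.408% to 0.414%, from 0.412% to 0.418% and from 0.409% to 0.415%, in the same order. The mean was 0.415% ± 0.00508 (SD, n = 4), so the share differed little between animals. Intervals cover counting error only, as reads without molecular identifiers are not independent molecules. The reads were concentrated in few members. Ubb alone took 21.7% of them, the 10 highest members 46.4%, and 13 members were enough to reach 50% of the sum.

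**Figure D1:**
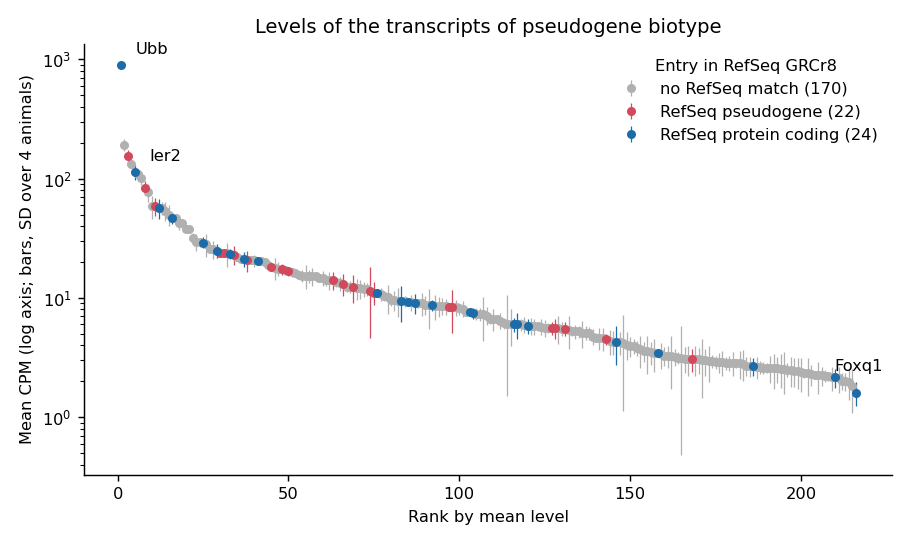
Mean level of each of the 216 members against its rank, in CPM on a log axis; bars give the SD over 4 animals and colours the entry in RefSeq GRCr8. Ubb stands above the rest at 899 CPM, Foxq1 is lowest at 1.61 CPM, and members that RefSeq lists as protein coding occur over the whole range.

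Ubb had 904, 871, 893 and 927 CPM in replicates 1 to 4, a mean of 899 ± 23.6 CPM (SD, n = 4). It was among the most even members, with a highest-to-lowest ratio of 1.06. At this depth that ratio still passed the test for counting noise described below (adjusted p = 6.08e-06), but not when mitochondrial genes were left out of the total (adjusted p = 0.181). Ier2 had 90.8, 116, 126 and 125 CPM. Replicate 1 was the low animal for this immediate early gene, and the other animals lay close together. Sephs2 had 71.6, 54.1, 46.1 and 53.9 CPM, with replicate 1 as the high animal. Rtl8a, a gene derived from a retrotransposon Gag sequence, had 39.6, 48.3, 50.2 and 49.1 CPM. Itpripl2 followed at 24.9 ± 3.35 CPM (SD, n = 4), Ado, which encodes a thiol dioxygenase, at 5.99 ± 0.789 CPM and Adam1a, known from sperm, at 5.85 ± 0.856 CPM. Foxq1 was the least abundant of all members, with 20, 35, 23 and 20 reads.

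The other members among the 10 highest were named for clones, apart from Hspa8-ps22, deposited as LOC688655. AABR07073038.1 had 224, 174, 181 and 195 CPM and was highest in replicate 1. AABR07043421.1 had 135, 130.2, 132 and 135 CPM. Its reads did not differ beyond counting noise (adjusted p = 0.549, chi-square test described below), so this abundant transcript was level across the 4 animals. AC094053.1 averaged 110.3 ± 9.31 CPM with a ratio of 1.2, which was 1.04 and within counting noise without replicate 1 (adjusted p = 0.556). Means were 101 ± 11.8 CPM for AABR07067267.1, 77.2 ± 13.0 CPM for AABR07006627.1 and 58.8 ± 13.0 CPM for AC128792.2 (SD, n = 4). Of these, AC128792.2 differed most, from 75.8 CPM in replicate 1 to 46.6 CPM in replicate 3. LOC100359922 is a further even member, at 20.4, 21.3, 20.7 and 19.7 CPM (adjusted p = 0.818).

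A parent could be read from the RefSeq name of 32 members (14.8%), as the part before -ps or before an l and a number. Names of the latter kind, such as Fignl2 and Itpripl2, can stand for a related gene rather than a copy. Cytosolic ribosomal protein genes gave their name to 4 of these, or 1.85% of all members and 1.51% of their reads. Chaperone genes gave 4, translation factors 2, glycolytic enzymes 2, RNA-binding proteins 2 and other genes 18. No member was named after a mitochondrial ribosomal, chromatin, cytoskeletal, oxidative phosphorylation, proteasome, ferritin, MHC or olfactory receptor gene; each of these classes held 0 members. With 170 members of unknown origin, the true shares could differ widely from these counts.

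The heat shock cognate gene Hspa8, which encodes a constitutive Hsp70 chaperone also called Hsc70, was the parent of 3 members, all of high level. Hspa8-ps22 had 157, 182, 145 and 134 CPM in replicates 1 to 4. Hsc70-ps2, deposited as AABR07031521.1, had 90.4, 96.2, 74.5 and 73.8 CPM, and Hspa8-ps23, deposited as LOC688932, had 57.1, 71.5, 58.3 and 47.4 CPM. All 3 were highest in replicate 2 and lowest in replicate 4, and so was Hspa8 itself, with 10561, 14392, 10598 and 10420 reads. The summed leukocyte markers were likewise highest in replicate 2 and lowest in replicate 4, and their part in this pattern was not tested. Reads of the 3 copies came to 20.3% ± 0.595, 11.0% ± 0.407 and 7.69% ± 0.685 of the Hspa8 reads (SD, n = 4). For Hspa8-ps22 the SD between animals was 0.19 on the log2 scale, and that of its log2 ratio to Hspa8 was 0.04. Hsp90aa1-ps16, named after a cytosolic Hsp90 gene, also peaked in replicate 2, with 276 reads against 166 to 183 in the others, and its parent had 5428 reads there against 3177 to 4039.

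The ribosomal protein copies were lowest in replicate 1, which held for 4 of 4. Replicate 1 was the lowest animal for 35.0% of all genes. The summed endothelial, mesangial and erythroid markers were also lowest there, and their part was not tested. Rps28-ps1, deposited as AABR07026317.1, had 8.48, 13.7, 12.5 and 9.71 CPM, and Rps28 had 1688, 2872, 2540 and 2061 reads. Rps12l8, which RefSeq lists as protein coding, had 17.1, 24.1, 22.9 and 20.6 CPM, or 11.0% ± 0.442 of the Rps12 reads (SD, n = 4). Rpl4-ps1 had 15.0, 19.1, 18.1 and 17.6 CPM and stayed at 3.93% ± 0.106 of the Rpl4 reads. Rpl10a-ps9 had 8.85, 15.5, 14.6 and 10.2 CPM, and its parent was not analysed here. Rpl4-ps1 did not pass the counting-noise test (adjusted p = 0.071), and the other 3 did, beside 69.5% of all genes.

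In all, 29 members had a parent with a row of its own, 26 different genes. Reads of the member, averaged over animals, were a median of 7.93% of the parent's, and the lowest value was 1.61% ± 0.157 for Eif4a1-ps8 (SD, n = 4). The highest was 127% ± 58.3 for Fignl2, which was above Fign in replicates 2 and 3 (169.6% and 184%) and below it in replicates 1 and 4 (75.5% and 77.4%). In 20 of the 29 pairs the log2 ratio of member to parent varied less between animals than the member did. For the 21 pairs that RefSeq calls pseudogenes it was 16, and the median SD was 0.19 for the members, 0.15 for the parents and 0.13 for the log2 ratios. Member and parent had the same lowest animal in 20 of 29 pairs and the same highest in 13. These counts take in 3 pairs with Hspa8, and replicate 1 or replicate 2 was the lowest animal for most genes of the table (35.0% and 31.5%), so unrelated genes often share it. How reads that fit both copies were treated in counting is not given in the sources used here, so the division of reads between a copy and its parent is uncertain. A part of shared reads in these likenesses was not tested.

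The highest-to-lowest ratio was larger for the member than for its parent in 25 of 29 pairs. Members had far fewer reads and so more counting error in this ratio, and the pairs were not compared at equal depth. Variation beyond counting noise was found for 15 of the 29 members and for the parents in 21 of the pairs, beside 69.5% of all genes. Vdac1-ps11, named after the mitochondrial outer membrane channel, had 12.9, 6.6, 5.6 and 8.2 CPM, a ratio of 2.3 against 1.52 for Vdac1, with the same highest and lowest animals. Hnrnpr-ps2 made up 40.5% of its parent's reads in replicate 1 and 27.2% to 30.4% in the other animals. Tcea1l1 is described below.

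**Figure D2:**
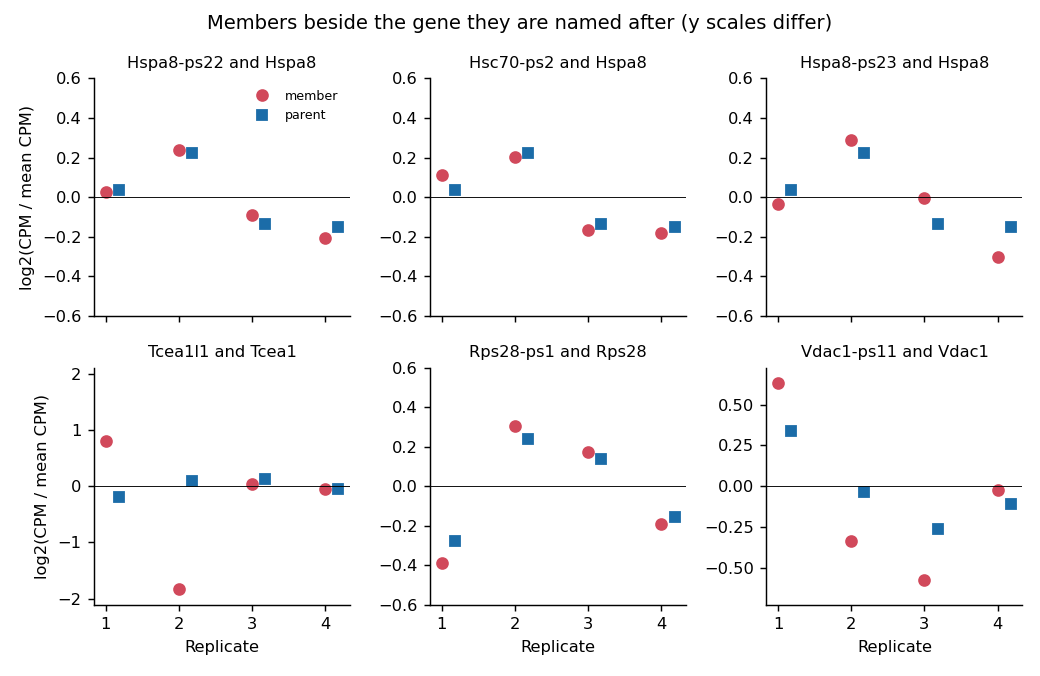
Member (circles) and parent (squares) in each replicate, as log2 of CPM over the mean CPM of the 4 animals; the y scales differ between panels. The 3 copies of Hspa8 and Rps28-ps1 stay close to their parents, whereas Tcea1l1 lies far below Tcea1 in replicate 2.

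The spread between animals was tested against Poisson counting error with a chi-square index of dispersion over all genes. Each animal gave a single sample, so differences between animals and differences in sample preparation cannot be told apart by this test. Variation beyond counting noise was found for 99 of 216 members, or 45.8%, at a Benjamini-Hochberg adjusted p under 0.05, and for 69.5% of all genes. The test has more power at higher read numbers, so members were set beside protein-coding genes of like depth. Under 50 mean reads, 18 of 57 members (31.6%) and 33.2% of protein-coding genes passed. From 50 to 200 mean reads it was 44.7% and 53.2%, from 200 to 1000 it was 55.4% and 69.0%, and from 1000 upward 8 of 9 members and 91.5%. The shares were close in the lowest and the highest range, and the difference between members and coding genes was not tested. The median SD of the log2 values was 0.23 for members and 0.18 for all genes, without regard to depth. Within the same 4 ranges of depth, from low to high, the median highest-to-lowest ratio was 1.61, 1.44, 1.27 and 1.29 for members and 1.64, 1.48, 1.28 and 1.25 for protein-coding genes. When each transcript was asked for its highest animal, replicate 1 was named for 77 members (35.6%) and for 27.7% of all genes. Replicate 2 followed with 25.5% of members (21.3% of all genes), replicate 3 with 20.8% (29.6%) and replicate 4 with 18.1% (21.4%). The lowest animal was replicate 1 for 30.6% of members (35.0% of all genes), replicate 2 for 32.4% (31.5%), replicate 3 for 13.4% (19.6%) and replicate 4 for 23.6% (13.9%). These differences between members and all genes were not tested. The summed podocyte and proximal tubule markers were highest in replicate 1, and the leukocyte markers lowest in replicate 4.

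Large splits between animals were rare. A ratio of at least 4 between the highest and the lowest animal, each taken with 0.5 reads added, was found for 4 members (1.85%), and for 0.769% of all genes. Under 50 mean reads this held for 1 of 57 members (1.75%) and for 4.01% of protein-coding genes. From 50 to 200 mean reads it held for 3 of 94 members (3.19%) and for 1.16% of protein-coding genes. These differences were not tested. None of the 65 members with a mean of 200 reads or more reached it. Leaving out replicate 1 gave 2 members (0.926%) beside 0.324% of all genes, and leaving out replicate 2 gave 1 member (0.463%) beside 0.452%, so that without replicate 2 the share of members was that of all genes. Without replicate 3 or replicate 4 the count was 3 (1.39%), beside 0.558% and 0.649% of all genes. The limma test, which compares a gene's variance with that of genes of like level, called 0 members at an adjusted p under 0.05, as it called 0 of all genes (percent called 0). At an unadjusted p under 0.05 it gave 4 members (1.85%), against 5.47% of all genes. These were the 4 members past the ratio, which rests on the same values as the variance, so the overlap is no separate evidence. The adjusted p was 0.912 for each of the 4.

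**Figure D3:**
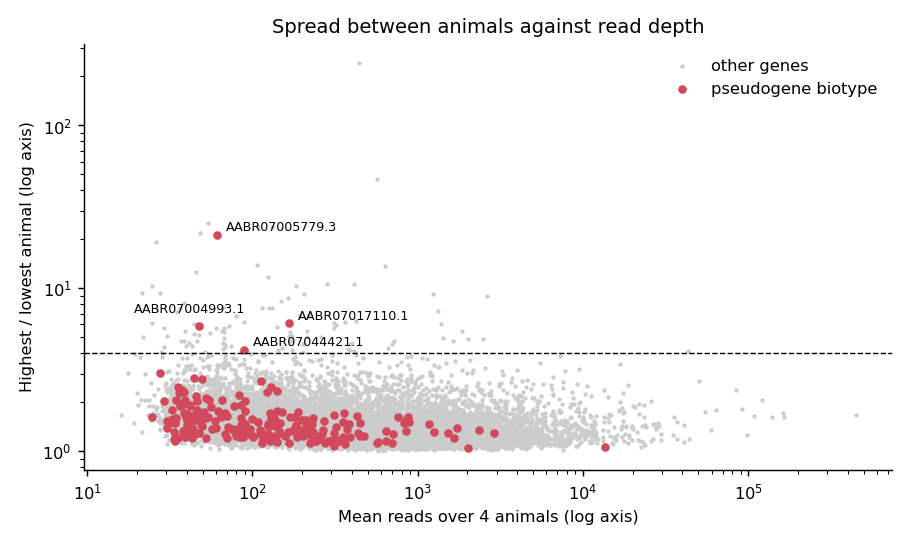
Ratio of the highest to the lowest animal against mean reads, both on log axes, for members (red) and all other genes (grey); the dashed line is a ratio of 4. Only 4 members lie above the line, and AABR07005779.3 stands highest among members at 21.3.

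AABR07005779.3 had 104, 77, 59 and 5 reads in replicates 1 to 4, or 7.67, 4.75, 3.84 and 0.328 CPM. Replicate 4 was far below the other animals, whose rate would have given 81.1 reads there. The ratio was 21.3 (adjusted p = 3.15e-20, chi-square test of counting noise), 1.99 without replicate 4 and 13.3 without replicate 1. The protein-coding row AABR07005779.1, named for the same contig, had 283, 496, 442 and 434 reads, a ratio of 1.47, and was not low in replicate 4. This comparison was chosen after the values were seen. Of the marker lists, the leukocyte genes were lowest in replicate 4, with summed levels of 753, 913, 808 and 705 CPM, and their part in this split was not tested. In bulk RNA, fewer cells of a type and less RNA per cell cannot be told apart.

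Tcea1l1, deposited as the processed pseudogene AABR07017110.1, is named after the transcription elongation factor gene Tcea1. It had 268, 52, 180 and 167 reads, or 19.8, 3.21, 11.7 and 11.0 CPM. Replicate 2 was low, replicate 1 was high, and replicates 3 and 4 lay together between them. The ratio was 6.11 (adjusted p = 1.59e-38, chi-square test of counting noise), 1.8 without replicate 2 and 3.63 without replicate 1. Tcea1 had 838, 1221, 1190 and 1040 reads, a ratio of 1.25, and was lowest in replicate 1 rather than in replicate 2. Tcea1l1 thus went from 32.0% of its parent's reads in replicate 1 to 4.26% in replicate 2. The nearest genes of the table on either side in RefSeq's gene order were Oxsm, with 17 reference genes between, and Slc4a7, with 1 between, and their ratios were 1.09 and 1.85. Oxsm had 177, 204, 211 and 194 reads, and Slc4a7 had 137, 93, 142 and 162, lowest in replicate 2 as well. The summed podocyte markers, given below, were also highest in replicate 1 and lowest in replicate 2, and their part in this split was not tested.

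AABR07004993.1 had 28, 19, 108 and 34 reads, or 2.06, 1.17, 7.04 and 2.23 CPM. Replicate 3 stood above the other animals. The ratio was 5.88 (adjusted p = 2.01e-21, chi-square test of counting noise). Without replicate 3 it was 1.88 and no longer beyond counting noise (adjusted p = 0.0902), and it was 3.37 without replicate 2. Replicate 3 also had the highest summed level of erythroid markers (3 of 3 genes listed), at 720.0, 906, 1337 and 929 CPM in replicates 1 to 4. The same held for the sum of the endothelial markers (5 of 6 genes used), at 4480.0, 4923, 5866 and 4836 CPM. Their part in this split was not tested.

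AABR07044421.1, an unprocessed pseudogene, had 174, 49, 52 and 79 reads, or 12.8, 3.02, 3.39 and 5.18 CPM. Replicate 1 was the high animal, and replicates 2 and 3 were close together. The ratio was 4.21 (adjusted p = 1.18e-31, chi-square test of counting noise), which is just past the threshold. It fell to 1.71 without replicate 1, was 3.76 without replicate 2, and was 3.98 when mitochondrial genes were left out of the total. Podocyte markers had the same order of animals: the summed level of 7 of 7 podocyte genes was 6896, 3621, 4912 and 5974 CPM. Markers of the proximal tubule, 8 of 8 listed, summed to 5545, 4102, 2770.0 and 4506 CPM and were also highest in replicate 1. The part of cell composition in the level of this transcript was not tested.

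**Figure D4:**
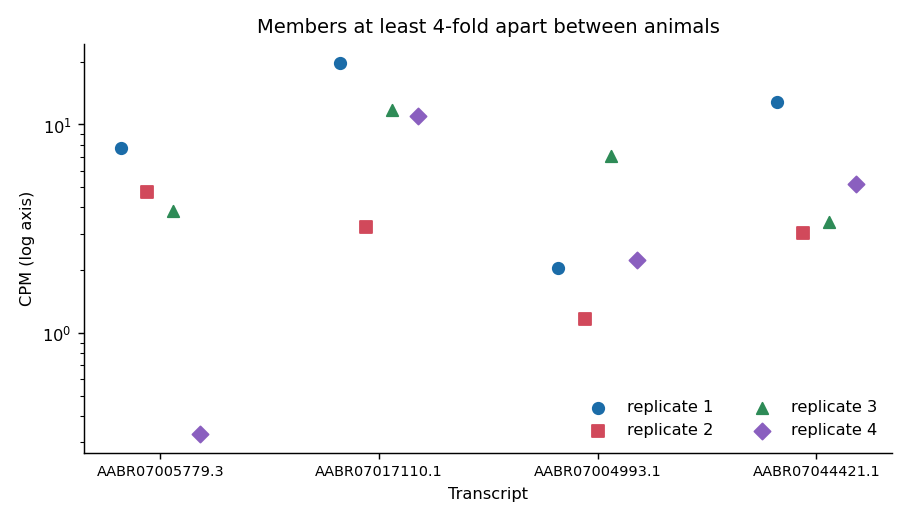
Level in CPM on a log axis of the 4 members at least 4-fold apart, in each of the 4 replicates. A different animal stands out for each member: replicate 4 for AABR07005779.3, replicate 2 for AABR07017110.1 (Tcea1l1), replicate 3 for AABR07004993.1 and replicate 1 for AABR07044421.1.

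On the log scale, the animal set apart by the widest gap was thus a different one in each of the 4 transcripts. Tcea1l1 was also high in replicate 1, at 19.8 CPM against 11.7 and 11.0 in replicates 3 and 4. Just under the threshold were AC120712.2 with a ratio of 3.01, AABR07064111.1 with 2.83 and AABR07058479.1 with 2.79. AC120712.2 had 10 reads in replicate 1 and 31, 35 and 35 in the others, and without replicate 1 its ratio was 1.2 (adjusted p = 0.759). AC120712.3, named for the same clone, had 35, 22, 32 and 35. AABR07064111.1 had 67, 28, 28 and 53 reads, high in replicates 1 and 4, and its CPM followed the podocyte order too. AABR07058479.1 had 26, 49, 83 and 39 reads, high in replicate 3, and without that animal its ratio of 1.56 was not beyond counting noise (adjusted p = 0.221). The order of the 4 animals in a marker list was shared by many transcripts. The podocyte order, replicates 1, 4, 3 and 2 from high to low, was that of 25 members (11.6%) and of 9.43% of all genes. Among them were AABR07073038.1 and AABR07067267.1 of the most abundant members. The proximal tubule order was that of 11 members (5.09%) and 5.46% of all genes, with AC128792.2 and Vdac1-ps11 among them. The endothelial order was that of 10 members (4.63%) and 9.39% of all genes, including AABR07058479.1, and the mesangial order that of 10 members and 4.06% of all genes, including AC120712.2. The erythroid order was that of 12 members (5.56%), Ier2 and Rtl8a included, and 6.91% of all genes, and the leukocyte order that of 8 members (3.7%) and 2.83%. The part of cell composition in any of these levels was not tested. Genotypes of these outbred animals were not analysed here, and the part of sequence differences between animals in any of the splits was not tested.

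Of the members that RefSeq lists as protein coding, 12 of 24 varied beyond counting noise and 0 passed the ratio of 4. For those it lists as pseudogenes the numbers were 11 of 22 and 1, and for the 170 unmatched members 76 and 3. Over all genes, 69.5% passed the first and 0.769% the second. The classes differ from all genes in depth, and were not compared with genes of like depth. The median level was 9.19, 13.6 and 5.8 CPM in these 3 classes. The most uneven of the coding class was Rtl5, deposited as AABR07039210.2, at 12.6, 5.37, 8.93 and 10.8 CPM, a ratio of 2.34, in the same order of animals as the podocyte markers. Fignl2, named after the gene for fidgetin, had 2.95, 4.81, 6.12 and 3.15 CPM, high in replicates 2 and 3, whereas Fign had 3.91, 2.84, 3.32 and 4.07 CPM. Both Rtl5 and Fignl2 were chosen after their values were seen.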

How the data were processed

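Glomerular polyadenylated RNA of 4 rats, all given ADR, was compared between animals; replicate numbers follow accession order and only name them. The labels do not say that each sample is a separate rat, as is taken here. P-values measure the spread between these samples. The deposited values are log2 CPM with 0.5 reads added, as read from the values by the fact that each is a whole number of reads (within 0.01) for 100% of values; no label records this step. HISAT2, featureCounts, Subread and limma, and the build Rnor_6.0, are named per the submitters' processing notes, with no version or role given; the filter on low genes and the use of strand are not given in the sources used here. Of 13265 rows, 4 with displaced values were left out, and 0 value columns belonged to no sample. The replicates held 13566962 to 16207027 reads in the genes used, so a single read was worth 0.0617 to 0.0737 CPM.

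Recovered reads were tested against Poisson sampling (chi-square, 3 degrees of freedom) over all genes. The variance of log2(CPM + 1) was set against limma's trend (limma 3.58.1, R 4.3.3; prior of 3.79 degrees of freedom). P-values were adjusted by Benjamini-Hochberg over 13261 genes. Both were tested on simulated data. Named members were the 10 highest, all with a ratio of at least 4, the 3 just under it, the 3 most even with a mean of at least 200 reads, the lowest, and their parents; others illustrate a class and were chosen after their values were seen. The members, lists and rule were chosen with earlier results of these data known. The alternatives tried were 2 other scalings, a total without mitochondrial genes, a minimum of 50 mean reads, a pseudocount of 2, a robust prior and leaving out each replicate. Marker lists of 6 cell types were summed. A podocyte gene of the planned list is not reported here and is in no sum, and Pecam1 was not used, which left 5 of 6 endothelial genes. The summed levels of the podocyte and proximal tubule lists are given above. Glomerular endothelium ran from 4480.0 to 5866 CPM, mesangium from 1649 to 2080.0, leukocytes from 705 to 913 and erythroid cells from 720.0 to 1337.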

Additional observations from a re-analysis of the deposited data

Results flagged for a closer look

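Each result with a value per animal was checked by Dixon's criterion, in which the gap between the most extreme animal and its neighbour is divided by the whole range. It was met at the 95% level by 2 of 27 results. These take in named members, some of them chosen by their spread over the same animals, so no number expected by chance applies. AC120712.2 was set apart by replicate 1, with 10 reads against 31 to 35 (gap over range 0.836). The median level of pseudogenes was set apart by replicate 2, at 2.92 against 2.98 to 2.99 on the log2(CPM + 1) scale (gap over range 0.852). Over all 216 members, 9 (4.17%) met this criterion, beside 5.08% of all genes.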

How the results depend on the processing

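No paired analysis was possible because the samples form a single group. Of 326 recomputed values, 311 stayed within their criterion. The number of members beyond counting noise, 99, ran from 66 to 93 when a replicate was left out and was lowest without replicate 1 (66). Over all genes it was 7326 without replicate 1, against 9222 with all animals. With other scalings or without mitochondrial genes it was 101 to 102 members, beside 9113 to 9312 of all genes. With a minimum of 50 mean reads it was 81 of the 159 members left, beside 9019 of all genes. The number with a ratio of at least 4 ran from 1 to 3 when a replicate was left out: 2 without replicate 1 (43 of all genes), and 1 without replicate 2 (60 of all genes, against 102 with all animals). It was 3 without mitochondrial genes in the total (99 of all genes). The median level, 2.96, was 3.08 without mitochondrial genes in the total, 3.40 over the 159 members with at least 50 mean reads and 3.14 with a pseudocount of 2; the share of reads, 0.415%, was 0.457% without mitochondrial genes in the total. These shifts follow from the construction of the alternatives. Ubb's ratio of 1.06 was 1.03 and within counting noise (adjusted p = 0.181) without mitochondrial genes in the total. Without replicate 1, AC094053.1 (1.04, adjusted p = 0.556, ratio 1.2 with all) and AC120712.2 (1.2, adjusted p = 0.759) were within it too. The limma test called 0 members under each alternative. At an unadjusted p under 0.05 it gave 3 to 6 members, a number not counted for the robust prior. The share of all genes at that unadjusted p is given here for the main setting only, 5.47%. Low read numbers limit the 57 members under 50 mean reads.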
